A study of Mus musculus with 9 samples.

Results

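The annexins and their S100 partners were examined in the stroma around prostate lesions of CR2-TAg mice. The members were the genes Anxa1, Anxa2, Anxa3, Anxa4, Anxa5, Anxa6, Anxa7, Anxa11, S100a6 and S100a10, found by gene symbol in the probe table of the array platform. Of these 10 genes, 8 had values, on 16 of the 17207 cDNA clones with a value, out of 8106 genes with values. S100a10 was the only symbol of no row, and Anxa11 appeared only on 2 rows that also listed other genes, so neither is given a value. Anxa2 had 2 rows, of which 1 held no value.

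Stroma was taken by laser capture microdissection from the prostates of hemizygous male mice on the FVB background, in which SV40 large T antigen is driven in prostatic neuroendocrine cells by regulatory elements of the cryptidin-2 (Defcr2) gene. Both groups carried the transgene. The invasive group was stroma of invasive cancer at 24 weeks of age (6 arrays), and the PIN group was stroma of prostatic intraepithelial neoplasia, a lesion that has not yet invaded, at 10 weeks of age (3 arrays, replicates 2, 3 and 4), with 1 mouse on each array. Age and stage changed together and cannot be told apart in these groups. RNA was amplified by 2 rounds of linear amplification, labelled with Cy5, and hybridised beside a Cy3-labelled pool of PIN stroma RNA. The paper describes that pool as RNA of 4 PIN samples, of which only replicates 2, 3 and 4 have an array here. Every value below is the log2 ratio of sample over that pool, and a difference is the invasive mean minus the PIN mean on that scale.

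Annexins are proteins that bind acidic phospholipids when calcium is present, and they organise membranes during secretion, endocytosis and repair of the plasma membrane. Small calcium-binding proteins of the S100 family attach to the annexin N-terminus, the best known complex being that of annexin A2 with S100A10, which holds plasminogen and its activator at the cell surface. Annexin A1 is induced by glucocorticoids and acts on formyl peptide receptors of leukocytes, where it limits inflammation.

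Each array held 17189 to 17206 values. Pearson correlation between arrays over clones was 0.26 to 0.77 among invasive arrays and 0.22 to 0.53 between the groups. PIN replicates 2 and 3 correlated at 0.67, but PIN replicate 4 reached only 0.18 and 0.19 with them. Results whose direction or call changed without PIN replicate 4 are therefore also given without it. Every PIN sample was compared with a pool that contained it, and no dye swap was made. In such bulk stroma, fewer cells of a type and less RNA per cell cannot be told apart.

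Anxa1 was the only one of the 8 measured members that passed the test, and it rose. Of the others, Anxa5, Anxa3 and Anxa2 lay on average higher in invasive stroma, and Anxa4, Anxa6, Anxa7 and S100a6 lower, without passing. A gene passed at a limma adjusted p under 0.15, the false discovery rate the study used, over all genes tested. The 1 passing member among 8 stands beside 5.64% of all genes that passed in either direction. At an adjusted p under 0.05 none of the 8 passed, against 0.938% of all genes, while 2 of them had an unadjusted limma p under that value, as did 15.0% of all genes. The median difference over the 8 members was 0.22, with 4 above 0 and 4 below, beside a median of 0.02 over all genes.

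Promoters of Anxa1, Anxa2 and Anxa5 are shown because Anxa1 passed the test and because Anxa2 was correlated with both others over the invasive arrays; the reference tables used here hold no window for Anxa3. RefSeq windows of the mouse build GRCm38.p6 were searched on both strands, from 250 bases before to 50 bases after each annotated start, for the GC box, spelled GGGCGG, for the TATA box, spelled TATAAA, for the CCAAT box, spelled by its name, and for the AP-1 site, spelled TGANTCA. No matches overlapped in the windows shown. The 250 bases before each start are printed 5′ to 3′ on the gene's strand, with matches in capitals.
Anxa1, chr19:20390672-20390921, minus strand: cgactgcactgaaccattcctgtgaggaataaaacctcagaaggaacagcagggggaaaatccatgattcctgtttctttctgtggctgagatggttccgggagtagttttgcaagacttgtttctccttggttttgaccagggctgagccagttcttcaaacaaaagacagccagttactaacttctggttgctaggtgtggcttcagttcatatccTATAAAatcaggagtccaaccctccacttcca
Anxa2, chr9:69453433-69453682, plus strand: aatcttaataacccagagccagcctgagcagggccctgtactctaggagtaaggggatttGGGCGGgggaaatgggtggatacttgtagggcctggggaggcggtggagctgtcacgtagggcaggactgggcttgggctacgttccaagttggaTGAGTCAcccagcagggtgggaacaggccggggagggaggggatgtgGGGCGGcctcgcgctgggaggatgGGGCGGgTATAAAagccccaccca
Anxa5, chr3:36475888-36476137, minus strand: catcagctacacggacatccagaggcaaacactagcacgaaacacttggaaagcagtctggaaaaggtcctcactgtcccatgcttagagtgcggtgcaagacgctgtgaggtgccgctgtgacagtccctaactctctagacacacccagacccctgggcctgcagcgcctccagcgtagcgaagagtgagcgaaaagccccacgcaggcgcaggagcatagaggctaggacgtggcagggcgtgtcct

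The Anxa1 window held 1 TATA box, whose first base lies at position -32 from the start, and 3 CpG dinucleotides. The Anxa2 window held 3 GC boxes at positions -190, -48 and -24, a TATA box at -17 and an AP-1 site at -95, with 13 CpG dinucleotides. The Anxa5 window held none of these letters and 16 CpG dinucleotides. Of 32851 RefSeq windows of the same length, 35.7% held GGGCGG, 13.6% TATAAA, 37.4% CCAAT and 7.81% TGANTCA, and the median CpG count was 7. Such matches are a description of the letters, not of bound factors. The 3 genes thus share none of the motifs searched, while Anxa1 and Anxa2 share the TATA letters.

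Anxa1, averaged over its 2 clones, was -0.32, -0.03 and -0.53 on PIN replicates 2, 3 and 4. On the invasive arrays its lowest value was 0.15, the median 1.23 and the highest 1.89. No PIN array reached the lowest of the 6 invasive arrays, and invasive replicates 3 and 1 came nearest. The invasive mean was 1.08 ± 0.65 (SD, n = 6) and the PIN mean -0.30 ± 0.25 (SD, n = 3). The difference was 1.38 (SE 0.34, 95% interval 0.64 to 2.12), a 2.60-fold higher level with a limma adjusted p of 0.0764. Anxa1 was the 1 member of 8 whose groups did not overlap, beside 7.85% of 8087 genes with a value on every array.

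The Anxa1 call depended on which single array was left out. Its limma adjusted p became 0.258, 0.184 and 0.165 on leaving out PIN replicates 2, 3 and 4 in turn. It was 0.151 on leaving out invasive replicate 4. On leaving out any other invasive array Anxa1 still passed, with limma adjusted p from 0.0119 to 0.139. An equal-variance test of each gene, without limma's moderation, gave an adjusted p of 0.241, while limma with array weights gave 0.008.

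Both Anxa1 clones were higher in invasive stroma. The clone of row 15430 measured -0.46, -0.06 and -0.44 on the PIN arrays, against a lowest value of 0.33, a median of 1.46 and a highest of 2.15 on the invasive arrays. Its groups were separate, and its difference of 1.56 (SE 0.37) passed over all clones with a limma adjusted p of 0.0961. The clone of row 14928 measured -0.18, 0.00 and -0.63 on the PIN arrays and between -0.03 and 1.64 on the invasive arrays, with a median of 0.99. There invasive replicate 3 fell just below PIN replicate 3, and the difference of 1.19 (SE 0.34) had a limma adjusted p of 0.162. The clones followed each other over the 9 arrays with r of 0.957, and were 0.07 to 0.70 apart on an array. Row 15430 was thus the 1 clone of 16 that passed, beside 2.16% of all clones. Without PIN replicate 4 it did not pass, and the S100a6 clone of row 17380 passed instead, as lower in invasive stroma. Row 15430 also did not pass on leaving out PIN replicate 2 or 3, or invasive replicate 2, 4, 5 or 6.

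**Figure D1:**
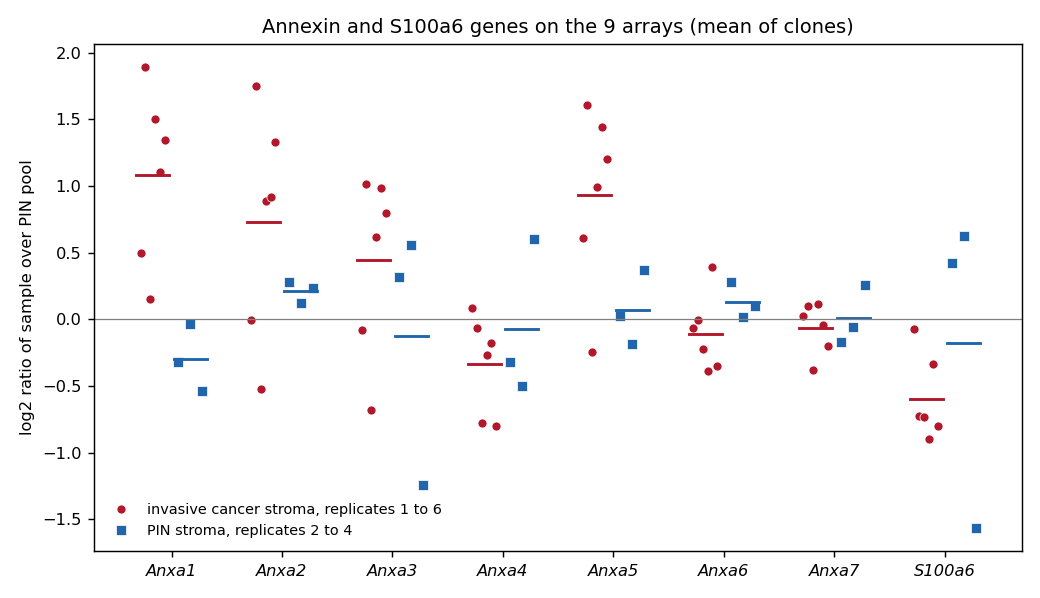
Log2 ratio of sample over PIN pool (vertical axis) for the 8 measured genes (horizontal axis), averaged over clones. Circles are the 6 invasive arrays and squares the 3 PIN arrays, each in replicate order from left to right, and bars are group means. Anxa1 is the gene whose groups do not overlap, and PIN replicate 4 is the low square of Anxa3 (-1.24) and S100a6 (-1.56).

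Anxa5, a protein best known as the probe for phosphatidylserine on dying cells, measured 0.03, -0.19 and 0.37 on PIN replicates 2, 3 and 4. Its invasive values ran from -0.25 through a median of 1.10 to 1.61. Invasive replicate 3 fell below every PIN array, and the other 5 invasive arrays lay above all of them. The difference was 0.86 (SE 0.35, 95% interval 0.09 to 1.63), or 1.82-fold, with a limma adjusted p of 0.268. Without invasive replicate 3, where Anxa5 was lowest, the limma adjusted p was 0.031, and that gene then passed beside Anxa1. Leaving out any other single array gave Anxa5 a limma adjusted p from 0.251 to 0.546.

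Anxa2, the partner of S100A10 and a plasminogen-binding protein of the cell surface, measured 0.28, 0.12 and 0.24 on PIN replicates 2, 3 and 4. On invasive arrays 1 to 6 it measured 0.00, 1.75, -0.52, 0.89, 0.92 and 1.33. Invasive replicates 1 and 3 lay below all PIN arrays and the other 4 above them. The difference was 0.51 (SE 0.42, 95% interval -0.39 to 1.42) with a limma adjusted p of 0.631, so a change in either direction could not be told from the spread. The invasive SD of 0.85 was the highest of the 8 genes, against a PIN SD of 0.08, the lowest.

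Anxa3, an annexin known from neutrophil granules, measured 0.32, 0.56 and -1.24 on PIN replicates 2, 3 and 4 over its 2 clones. Its invasive values ran from -0.68 through a median of 0.71 to 1.02. Invasive replicates 1 and 3 were again low, and PIN replicate 4 was lower than any other array. The difference was 0.57 (SE 0.45, limma adjusted p = 0.620), and without PIN replicate 4 it was 0.01. Its clones gave differences of 0.47 and 0.66 and followed each other with r of 0.955 over the 9 arrays, so the low value of PIN replicate 4 was on both.

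Anxa4, an annexin of secretory epithelia, measured -0.32, -0.50 and 0.60 on the PIN arrays and from -0.80 to 0.09 on the invasive arrays, with a median of -0.22. The groups overlapped, and PIN replicate 4 was the highest of all 9 arrays. The difference was -0.26 (SE 0.29, limma adjusted p = 0.745), and without PIN replicate 4 it turned to 0.08.

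Anxa6, the annexin with a doubled set of core repeats, measured 0.28, 0.02 and 0.10 on the PIN arrays and from -0.39 to 0.39 on the invasive arrays. Invasive replicate 5 lay above all PIN arrays and the other 5 below them. The difference was -0.24 (SE 0.21, 95% interval -0.69 to 0.21, limma adjusted p = 0.660), with its clones at -0.37 and -0.10.

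Anxa7, also called synexin and known for fusing secretory granules, had 6 clones. Its mean over them was -0.17, -0.06 and 0.26 on the PIN arrays and from -0.38 to 0.11 on the invasive arrays, a narrow range in both groups. The difference was -0.07 (SE 0.19, 95% interval -0.48 to 0.34, limma adjusted p = 0.909), so a change as large as that of Anxa1 lay outside the interval, and without PIN replicate 4 it turned to 0.05. The 6 clones gave differences from -0.30 to 0.19, with 2 above 0 and 4 below, and correlated with each other over arrays at r from -0.66 to 0.79. Clones of this gene therefore did not all measure a shared pattern over arrays, although some pairs agreed. The mean and its interval average over clones that differ.

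S100a6, or calcyclin, which binds several annexins, measured 0.42, 0.62 and -1.56 on PIN replicates 2, 3 and 4. Its invasive values were -0.90 at the lowest, -0.73 at the median and -0.07 at the highest. All 6 invasive arrays fell below PIN replicates 2 and 3 and above PIN replicate 4. The difference was -0.42 (SE 0.41, 95% interval -1.30 to 0.47) with a limma adjusted p of 0.701. Without PIN replicate 4 it was -1.11 with an adjusted p of 0.079, and then S100a6 passed as lower in invasive stroma while Anxa1 did not pass.

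**Figure D2:**
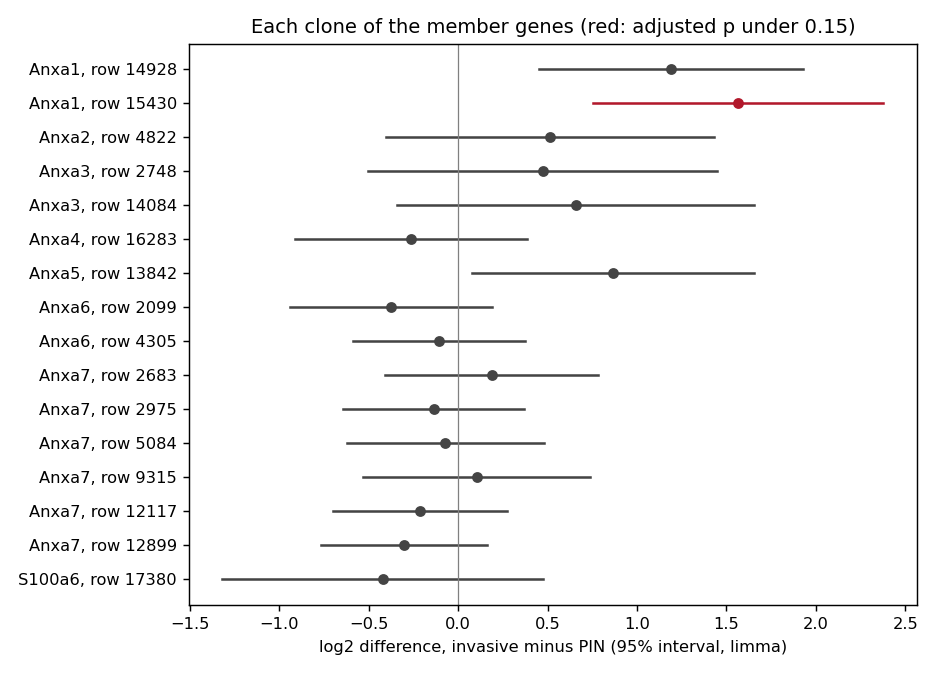
Difference of invasive minus PIN stroma on the log2 scale (horizontal axis) for each of the 16 clones (vertical axis, gene and row number), with the limma 95% interval as a line. The clone of row 15430 of Anxa1, at 1.56, passed, and the 6 clones of Anxa7 lie on both sides of 0.

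The fits above do not show whether the members differ from one another. Anxa1 was set against each of the other 7 within an array, a comparison chosen after the values were seen. Because Anxa1 had the largest difference of the measured members, all 7 differences were bound to be positive. The exact permutation p take no account of that choice, so they cannot decide whether the members differ. Anxa1 minus Anxa2 was 0.36 on average over the invasive arrays and -0.51 over the PIN arrays. The 2 groups of values did not overlap, and the difference of 0.86 had an exact permutation p of 0.0238 (two-sided, the smallest these arrays can give), 0.0556 after adjustment over the 7 comparisons. The differences of Anxa1 against Anxa6 and Anxa7 were 1.62 and 1.45, with the same p. Those against S100a6 and Anxa4 were larger, 1.80 and 1.64, with exact permutation p of 0.0714 and 0.0476. For Anxa5, the gene nearest to Anxa1, the difference was 0.51 with an exact permutation p of 0.143. None of the 7 adjusted values was under 0.05. Without PIN replicate 4 the differences against Anxa2, Anxa6 and Anxa7 were 0.73, 1.51 and 1.205, each with an exact permutation p of 0.0714, the smallest that the arrays left can give. The difference was then 0.24 against Anxa5, and against Anxa3 it went from 0.81 to 1.25. Against Anxa4 it was then 1.18, with an exact permutation p of 0.143, and against S100a6 it was 2.37.

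Among the 6 invasive arrays, Anxa1, Anxa2, Anxa3 and Anxa5 each had their lowest values on replicates 1 and 3. Of all 28 pairs of members, 4 had a Pearson r with an exact permutation p under 0.05 after Benjamini-Hochberg adjustment, and no Spearman rho had an adjusted value under 0.05. For Anxa3 and Anxa5, r was 0.984 (exact permutation p = 0.00139, adjusted 0.0389) and rho was 1.0 (exact permutation p = 0.00278, adjusted 0.0778). Without invasive replicates 1 and 3, r of that pair was 0.981 over 4 arrays.

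For Anxa1 and Anxa2, r was 0.966 (exact permutation p = 0.00556, adjusted 0.0486) and rho was 0.829 (exact permutation p = 0.0583, adjusted 0.327). For Anxa2 and Anxa3, r was 0.946 (exact permutation p = 0.00694, adjusted 0.0486) and rho 0.943 (exact permutation p = 0.0167, adjusted 0.156). For Anxa2 and Anxa5, r was 0.935 with rho 0.943, and with the same exact permutation values as the pair of Anxa2 and Anxa3. Without invasive replicates 1 and 3 these r fell to 0.772, 0.528 and 0.642, so these relations rest in part on those arrays. With only invasive replicate 3 left out, r of Anxa1 and Anxa2 was 0.931, with an exact permutation p of 0.05 before adjustment. Anxa1 did not pass with Anxa3 or Anxa5: r was 0.903 and 0.884, each with an adjusted exact permutation p of 0.0843, and fell to 0.116 and 0.303 without invasive replicates 1 and 3. These pairs were chosen for display with the values known, and the arrays share 1 reference pool.

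An r of at least 0.935, the lowest of the 4 pairs above, was held over the invasive arrays with Anxa1 by 1.06%, with Anxa2 by 1.64%, with Anxa3 by 1.64% and with Anxa5 by 1.87% of the 8086 other genes. S100a6 did not follow this group, with r from -0.44 to -0.03 to these 4 annexins and no adjusted p under 0.05.

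**Figure D3:**
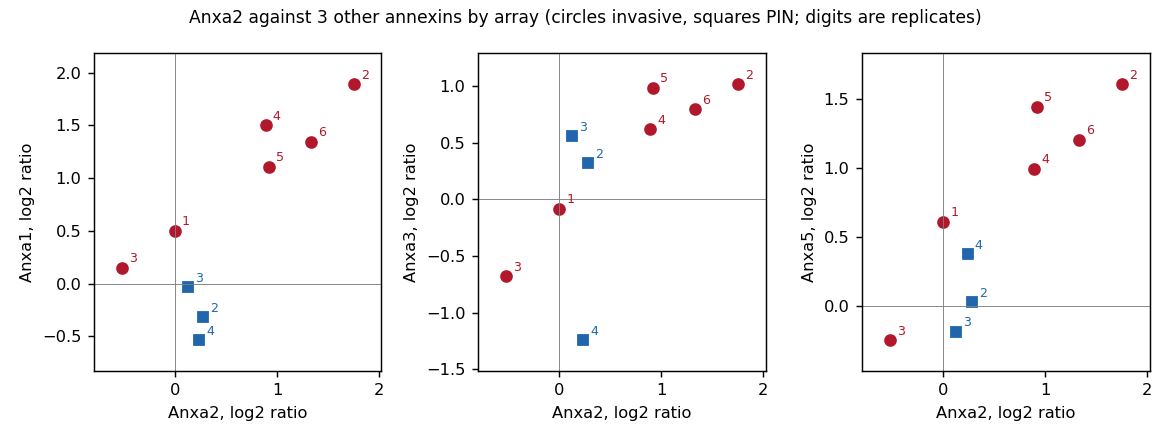
Log2 ratio of Anxa2 (horizontal axes) against Anxa1, Anxa3 and Anxa5 (vertical axes), with circles for invasive and squares for PIN arrays and digits for replicates. Invasive replicates 3 and 1 lie at the low end in each panel, and the PIN arrays lie apart from the invasive ones for Anxa1.

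Over all 9 arrays, the genes nearest to Anxa1 by root mean square difference of log2 ratio were Rap1b (0.20), a small GTPase, Zfp36l2 (0.25), a protein that destabilises AU-rich mRNA, and Ier5 (0.27), an immediate early response gene. Their differences of 1.24, 1.504 and 1.23, beside 1.38 for Anxa1, are part of what the choice used. Nearest to Anxa2 were Tmem165 (0.30), a Golgi membrane protein, Snx10 (0.30), a sorting nexin, and Vcan (0.31), the proteoglycan versican, out of 8086 genes compared. None of these 3 passed, with limma adjusted p from 0.410 to 0.564. As Anxa2 itself did not pass, that too is part of what the choice used.

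Markers of other cell types moved between the same groups. Of the 13 macrophage markers listed, 4 were measured (Lyz2, Cd14, Fcgr3 and Laptm5), and all 4 passed as higher. Their median per array was 0.80 to 2.98 in invasive and -0.43 to 0.48 in PIN stroma. It was lowest among invasive arrays in replicate 3 (0.80), the array where Anxa1, Anxa2, Anxa3 and Anxa5 were lowest, but stood at 2.68 in replicate 1, where Anxa2 was 0.00. Of 10 measured fibroblast markers, 3 passed as higher, and their median per array was 0.11 to 1.26 in invasive and -0.38 to 0.19 in PIN stroma, again lowest in invasive replicate 3.

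Of 6 endothelial markers measured, 2 passed as higher, with medians of 0.33 to 1.76 in invasive and 0.04 to 0.05 in PIN stroma, the lowest invasive value being that of replicate 3. Of 4 smooth muscle markers measured, 2 passed as lower, with medians of -3.96 to -0.39 in invasive and -0.60 to 0.43 in PIN stroma, the highest invasive value being that of replicate 3. Of 8 epithelial markers measured, 1 passed as higher, but the median difference of the 8 was -0.40. Their median per array was -1.10 to -0.06 in invasive stroma. PIN replicate 4, low in S100a6 and Anxa3, had the highest epithelial median, 0.64, beside -0.99 and -0.87 on the other PIN arrays. No marker of neuroendocrine cells (3 measured), neutrophils (4) or lymphocytes (1) passed, and the neuroendocrine median per array was 0.34 to 3.69 in invasive and -0.17 to 0.66 in PIN stroma. The part of these cell types in the annexin values was not tested.

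**Figure D4:**
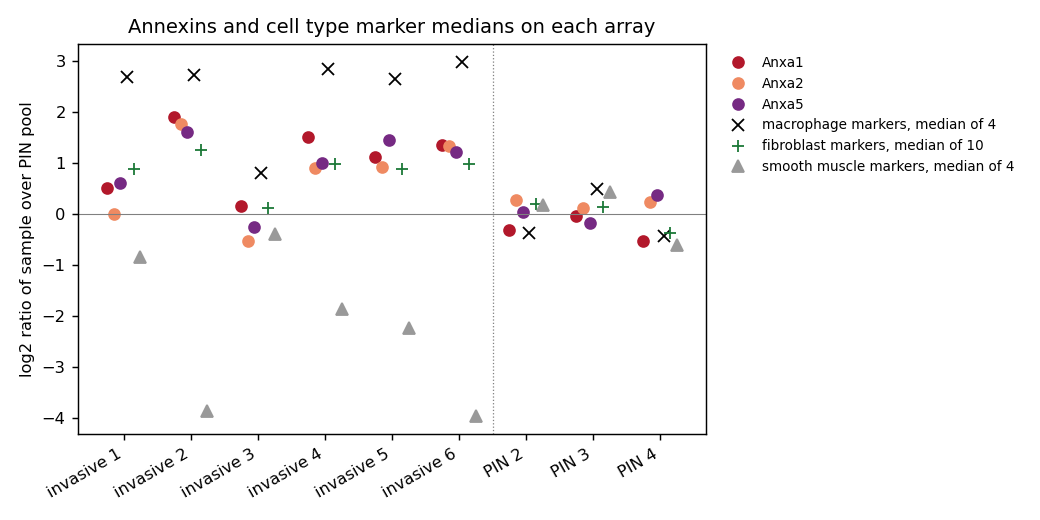
Log2 ratio of sample over PIN pool (vertical axis) on each array (horizontal axis) for Anxa1, Anxa2 and Anxa5 and for the medians of macrophage, fibroblast and smooth muscle markers. Invasive replicate 3 has the lowest macrophage median of the invasive arrays, 0.80, and low values of all 3 annexins.

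Genes tied to the annexins were taken from lists of 4 kinds. The 4 other annexins listed had no measured row. Of the 15 other S100 genes, 4 were measured and 1 passed, beside 5.64% of all genes. S100a13, which helps export fibroblast growth factor 1, rose by 0.80 (SE 0.23, 95% interval 0.29 to 1.31, limma adjusted p = 0.124), with PIN values of -0.44 to 0.13 and invasive values of 0.18 to 1.09. S100a9, a calprotectin subunit of myeloid cells, was named after its values were seen: its difference was 1.44 (SE 0.51), the highest of the 4, with a limma adjusted p of 0.197. The median difference of the 4 was 0.54.

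Of 24 binding partners of the annexins and of S100a6 or S100a10, 13 were measured. Of these, 2 passed as higher and 1 as lower, beside 5.64% of all genes that passed in either direction. Ctsb, the lysosomal protease cathepsin B that also binds the annexin A2 complex at the cell surface, rose by 1.62 (SE 0.31, 95% interval 0.96 to 2.29, limma adjusted p = 0.0366). Its PIN values were -0.18 to 0.29 and its invasive values 0.71 to 2.20, without overlap. Plaur, the urokinase receptor, rose by 0.64 (SE 0.19, limma adjusted p = 0.129), from PIN values of -0.11 to -0.06 to invasive values of 0.21 to 0.84. Pef1, the peflin partner of the calcium sensor that binds Anxa7 and Anxa11, fell by 0.58 (SE 0.17, limma adjusted p = 0.130). The median difference of the 13 was 0.17.

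Of 24 genes of membrane repair and calcium-dependent membrane binding, 14 were measured and none passed, with 3 at an unadjusted limma p under 0.05, beside 15.0% of all genes, and a median difference of 0.19. None of the 14 passed in the equal-variance test or in one with unequal variances, and limma with array weights called 4. The share of all genes that passed in those tests is not given, so these counts are not read as particular to the list. The EH-domain membrane-shaping genes had the smallest p: Ehd1 differed by 0.69 (SE 0.28, limma adjusted p = 0.273) and Ehd4 by 0.89 (SE 0.37, limma adjusted p = 0.276). The remaining gene of the 3, Cav1, was named after its values were seen. It went the other way, by -0.67 (SE 0.29, limma adjusted p = 0.294). Among these 31 related genes measured, 4 passed, beside 5.64% of all genes. Of the 4, only Ctsb had a limma adjusted p under 0.05, beside 0.938% of all genes. Without PIN replicate 4 the limma adjusted p of S100a13, Plaur and Pef1 became 0.279, 0.197 and 0.203, which left Ctsb (0.0876) as the only one that passed. Without PIN replicate 2 none of them passed, with Ctsb at 0.158, and without invasive replicate 3 there were 8. In the equal-variance test Pef1 was the only one that passed, and Ctsb had an adjusted p of 0.177. For that test and the left-out arrays the share of all genes is not given either, so the counts only describe the related genes.

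**Figure D5:**
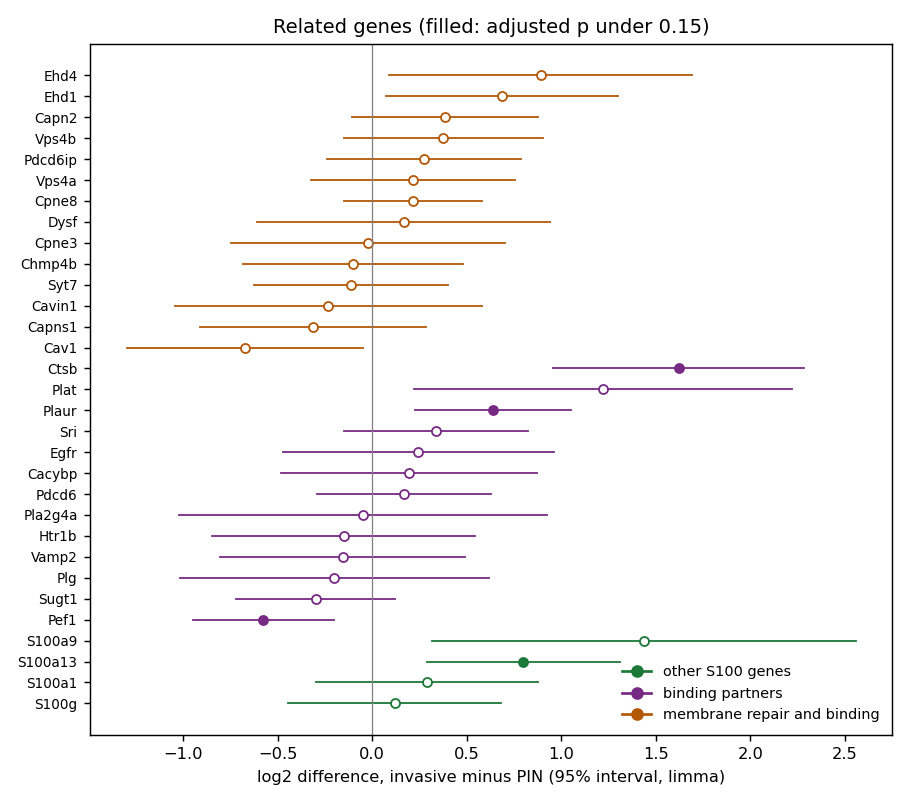
Difference of invasive minus PIN stroma on the log2 scale (horizontal axis) with limma 95% intervals for the 31 measured related genes (vertical axis), coloured by list. Filled points passed: Ctsb at 1.62, S100a13 at 0.80 and Plaur at 0.64 were higher and Pef1 at -0.58 was lower.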

How the data were processed

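The authors hybridised amplified stromal RNA (Cy5) with a pool of PIN RNA (Cy3) on spotted cDNA arrays and deposited log2 ratios, normalized by print-tip lowess without background subtraction. The table had 17664 rows, 457 of them empty and 17163 complete over the 9 arrays. A single symbol was listed for 12563 rows, 412 had more than 1 and 4689 lacked any, and rows without a single symbol entered only the fit of clones. A gene's value on an array was the mean of its clones. Features measured on 4 or more invasive and 2 or more PIN arrays entered limma 3.58.1 (lmFit and eBayes, R 4.3.3, two-sided, Benjamini-Hochberg adjustment over all 8106 genes or 17207 clones) and passed at an adjusted p under 0.15. Exact permutation tests were run in SciPy 1.17.1. The fit was tested on simulated data. Signal over background is unknown here, since intensities of the spots were left aside, and the number of arrays limits the precision. Members and lists were chosen with earlier results of these data known. The genes named were all members, up to 4 passing genes of each related list with the smallest p or 2 where none passed, and the 3 nearest in pattern to Anxa1 and Anxa2. Alternatives were a two-sample test with unequal variances (called the methods' t-test, although the methods state no assumption on variances) and with equal variances, robust empirical Bayes, array weights, normalizations, filters, clone medians, the invasive arrays against 0, a replicate block and leaving out each array.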

Additional observations from a re-analysis of the deposited data

How the results depend on the processing

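Of 21 alternatives, 16 moved the value of at least 1 member, and in those 124 of 128 values of the 8 members kept the sign of the main difference. The others were Anxa4, at 0.018 with array weights and 0.0763 without PIN replicate 4 (from -0.4758 to 0.0763 over the arrays left out), and Anxa7, at 0.0646 and 0.0527 (from -0.1613 to 0.0527). The 128 values include those of the invasive arrays against 0, which are invasive means and not differences from PIN stroma. Anxa1 passed in 14 of the 21 and not in 7. The count of members that passed, 1, became 0 with an equal-variance t-test, with the replicate block and at 0.05, 3 with array weights (Anxa1, Anxa5 and S100a6) and 5 for the invasive arrays against 0 (also Anxa2 and Anxa4). Leaving out 1 array gave 0 to 2 genes. For these alternatives the share of all genes or clones that passed is not given. The counts of members, and those of clones and related genes below, are therefore not read as particular to them. The count of clones that passed, 1, became 0 with the replicate block, at 0.05, with an equal-variance t-test and with the methods' t-test (run with unequal variances), 4 with array weights and 6 for the invasive arrays against 0, and ran from 0 to 3 when 1 array was left out. The 4 related genes that passed became 1 with an equal-variance t-test (Pef1) and 1 at 0.05 (Ctsb), 2 with quantile normalization, 11 with array weights, 12 for the invasive arrays against 0 and 0 with the replicate block, and ran from 0 to 8 when 1 array was left out. The cause was not tested. Arrays with the same replicate number did not deviate together (r of -0.14, -0.05 and -0.04 for numbers 2, 3 and 4). With so few PIN arrays these r cannot exclude a link between arrays of equal number. The groups were different mice, taken at different ages. With the replicate block Anxa1 had a limma adjusted p of 0.258. The difference and correlation of Anxa2 and S100a10 planned over these arrays were not run, because no row carried the symbol S100a10.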
